A study of Mus musculus with 5 samples.

Results

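In cells of the newborn mouse retina, 10 neuropeptide precursor genes were followed out of 24594 genes in the deposited table. They are Nts (neurotensin), Penk and Pdyn (the opioid precursors proenkephalin and prodynorphin), Tac1 (substance P), Npy (neuropeptide Y), Cartpt (cocaine- and amphetamine-regulated transcript), Sst (somatostatin), Vip (vasoactive intestinal peptide), Adcyap1 (PACAP) and Cck (cholecystokinin). All 10 were taken by symbol from the table. The set was chosen by these same normalised read counts, with Nts seen to be low and Penk high where the label is Zfp292-OE, so the difference of each of the 10 is given as a description with no test. The study measured messenger RNA by sequencing in 5 libraries. In 2 of them, the controls, a plasmid with green fluorescent protein (CAG-GFP) had been electroporated in vivo into pups at postnatal day 0. In the other 3, labelled Zfp292-OE, the plasmid was CAG-Zfp292, which carries the zinc finger gene Zfp292. CAG is a strong promoter that works in most cell types and is not limited to progenitors. In both groups retinas were dissociated 4 days later and GFP-positive cells, named retinal progenitors in the labels, were collected by flow sorting. The labels do not state the strain of the pups or how many went into a library, so the spread between libraries may be technical.

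Neuropeptides are made as long precursor proteins, which convertases and carboxypeptidases cut at pairs of basic residues inside dense-core vesicles. The released peptides act on G protein-coupled receptors and are ended by peptidases on cell surfaces. In the mature retina most of these peptides are known from subtypes of amacrine cells, the inhibitory interneurons of the inner retina, and each marks a small fraction of them.

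Genome sequence is shown for the 4 members whose values did not overlap between the groups, starting with Penk. The coding part of the Penk transcript in the GENCODE M21 annotation has 268 codons, and 7 stretches in it spell the opioid core tyrosine-glycine-glycine-phenylalanine followed by methionine or leucine. The fifth codon is one for methionine in 6 copies and for leucine in 1, which are the met- and leu-enkephalin of the textbooks. Capitals mark the codons of the released peptide and lower case the codons of the flanking basic pairs. Of the 7 copies, 5 hold the core of 5 codons alone, and copies 4 and 7 run on for 8 and 7 codons.
Penk copy 1: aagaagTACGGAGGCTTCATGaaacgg
Penk copy 2: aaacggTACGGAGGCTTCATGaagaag
Penk copy 3: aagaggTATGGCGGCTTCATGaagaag
Penk copy 4: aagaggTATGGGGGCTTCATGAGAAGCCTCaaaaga
Penk copy 5: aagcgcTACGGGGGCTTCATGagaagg
Penk copy 6: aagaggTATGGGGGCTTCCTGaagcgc
Penk copy 7: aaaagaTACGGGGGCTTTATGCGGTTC
The repeats differ in their codons, with 4 different spellings among the 5 plain copies. A single Penk messenger thus codes for several peptides, and reads counted under Penk do not say which were released.

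The 250 bases upstream of the annotated start are shown for the 3 members that were lower without overlap, Nts, Vip and Npy, from RefSeq (GRCm38.p6). Capitals mark 2 motifs searched on both strands, the AP-1 site TGANTCA and the core TGACGT of the cyclic AMP response element.
Nts, minus strand, chr10:102490419-102490668: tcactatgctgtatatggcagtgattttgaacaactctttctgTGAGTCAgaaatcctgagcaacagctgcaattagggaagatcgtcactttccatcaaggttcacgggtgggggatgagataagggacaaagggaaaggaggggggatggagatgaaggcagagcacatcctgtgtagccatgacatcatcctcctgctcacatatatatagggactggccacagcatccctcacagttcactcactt
Vip, plus strand, chr10:5638968-5639217: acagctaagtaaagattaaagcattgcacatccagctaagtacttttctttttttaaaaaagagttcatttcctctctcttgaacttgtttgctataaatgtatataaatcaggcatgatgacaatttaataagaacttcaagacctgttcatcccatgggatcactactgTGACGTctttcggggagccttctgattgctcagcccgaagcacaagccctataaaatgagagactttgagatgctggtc
Npy, plus strand, chr6:49822460-49822709: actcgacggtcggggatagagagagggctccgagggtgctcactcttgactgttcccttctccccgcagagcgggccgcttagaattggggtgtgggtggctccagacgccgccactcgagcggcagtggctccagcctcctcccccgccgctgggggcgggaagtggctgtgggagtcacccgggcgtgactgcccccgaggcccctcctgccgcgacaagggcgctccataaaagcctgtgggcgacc
Nts has 1 AP-1 match, with its last base 201 bases before the start, and Vip has 1 core match, 74 bases before the start. These letters are not in the Npy window. Upstream windows were matched for 9 of the 10 members, all but Penk. The core stands in 4 of the 9 (Sst, Vip, Cartpt and Adcyap1), and the whole palindrome TGACGTCA, which overlaps it, in Sst and Cartpt. Over all 32851 windows of the same length, 6.47% hold the core, 1.55% the palindrome and 6.75% the AP-1 letters. Of the 4 members with the core, Vip alone had groups that did not overlap, and a match describes letters and not a bound site.

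Values are normalised read counts, which are reads per gene divided by 1 factor per library, and reads assigned to genes numbered 103096224 to 137683716 per library. Of the 10 members, 9 had a mean of at least 10 over the 5 libraries and were fitted, and Cck did not. The groups did not overlap for 4 of the 9, with 3 lower and 1 higher in the libraries labelled Zfp292-OE. Over all 16316 genes fitted, 25.7% were lower and 24.3% higher without overlap. The median log2 difference was −0.94 for the 9 members and −0.06 for all genes fitted. The first is the value of Pdyn (SE 0.87), whose groups overlapped and which was at −0.53 in edgeR and −0.51 in DESeq2. As the set was chosen by these same values, its median is a description and no test of a shift. Zfp292 itself was not detectably higher, with a mean of 14022 for the controls against 14454 (limma adjusted p = 0.87, range over 14 alternatives 0.45 to 0.98), so each direction is that of the labels.

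**Figure D1:**
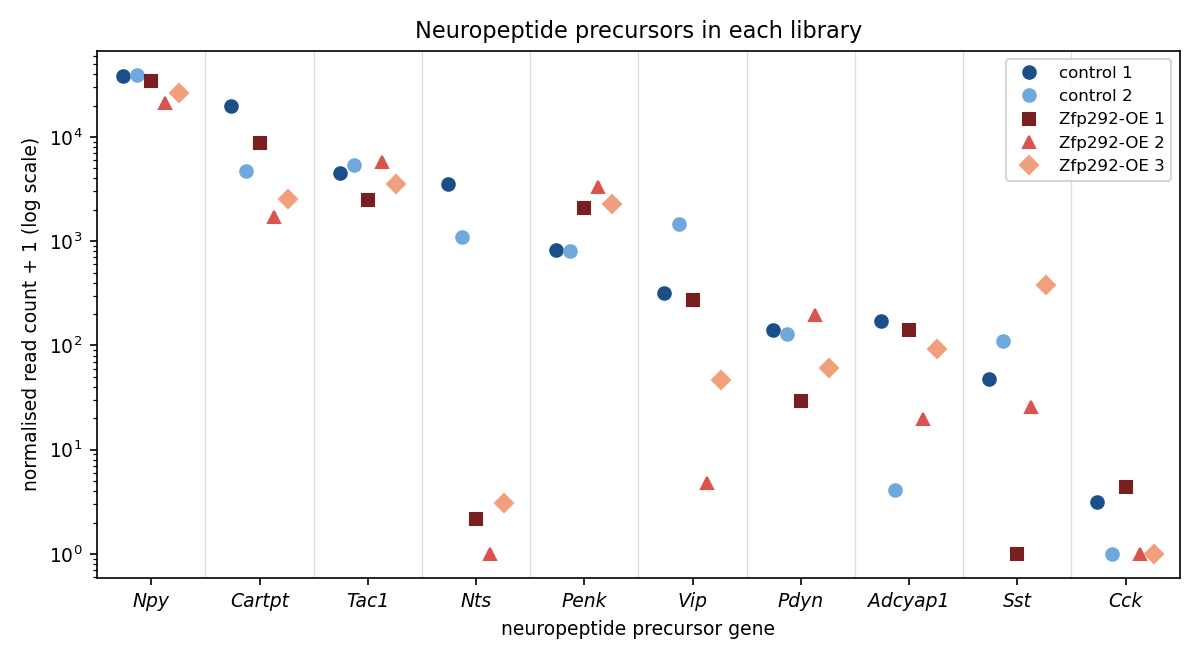
Normalised read count plus 1 (vertical, log scale) of each neuropeptide precursor (horizontal) in the 5 libraries, with circles for the 2 control libraries and squares, triangles and diamonds for libraries 1, 2 and 3 labelled Zfp292-OE. Nts lies at 1088 and 3532 in control and at 2.09 or less in the other libraries, while Penk lies at 804 and 827 in control and at 2094 or more in the others.

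Nts was nearly absent from the libraries labelled Zfp292-OE. The gene lies on chromosome 10 (102481756 to 102490418, GRCm38.p6) and encodes the precursor of neurotensin and neuromedin N. Control libraries 1 and 2 had 3532 and 1088, from 3241 and 1413 reads. The values were 1.14, 0 and 2.09 in the 3 labelled Zfp292-OE, from 1, 0 and 2 reads. Both controls were thus high, though 3.25-fold apart, and the other 3 were at or near 0. Control averaged 2310 ± 1728 (SD, n = 2) against 1.08 ± 1.05 (SD, n = 3). With reads pooled over each group, 4654 against 3, the level in control was 2027-fold that in the others. The exact binomial 95% interval of 693 to 9835 covers counting error only. It leaves out the gap between the 2 controls and is no test, as Nts was chosen by these same values. The log2 difference of −10.03 (SE 1.11) depends on the pseudocount at so few reads.

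Some markers of bipolar cells and pericytes were, like Nts, near 0 in the libraries labelled Zfp292-OE. Grm6, a metabotropic receptor that ON bipolar cells use to sense glutamate, had 2974 and 3960 in control and 35.4, 0 and 3.14 in the others. Rgs5, a marker of pericytes, had 1233 and 461 in control and 0, 16.0 and 2.09 in the others. Other markers of the same lists were not near 0. Prkca (bipolar) had 1880 and 2218 in control and 1950, 2151 and 1474 in the others. Cabp5 and Isl1 (bipolar) were lower, but at 925 to 1991 and 1114 to 2029 in the libraries labelled Zfp292-OE. Pdgfrb (vessel) had 393 and 440 in control and 156, 177 and 374 in the others. Of the bipolar markers 6 of 8 fell (limma, adjusted p below 0.05, a threshold that 17.4% of all genes fitted passed in either direction), and their summed level was 134581 to 183079 in control and 122161 to 208241 in the others, where Otx2, which photoreceptors also express, was most of the sum. Vsx1, Grm6 and Bhlhe23 were at 0 in 1 library labelled Zfp292-OE each. Of 7 vessel markers fitted, 1 rose and 2 fell, with a summed level of 42313 to 49650 in control and 35114 to 44070 in the others, most of it Kdr, which retinal progenitors also express. The vessel marker that rose was Cldn5, with 234 and 203 in control and 1995, 3227 and 1728 in the others. Cdh5 (endothelial) was at 0 in all libraries but library 2 labelled Zfp292-OE, Rgs5 in library 1 and Acta2 in library 3. Rod markers fell in 8 of 8 cases, with a sum of 525114 to 644702 in control and 131844 to 149962 in the others. Of 7 Müller glia markers 4 fell and 1 rose, and of 5 astrocyte markers fitted 3 fell, with median log2 differences of −0.86 and −2.17. No rod or Müller glia marker was at 0 in any library, and the astrocyte marker Pax2 was at 0 in libraries 1 and 2 labelled Zfp292-OE. The 6 microglial markers had sums of 1876 and 9134 in control and 288 to 3217 in the others. The part of any of these cells in the Nts difference was not tested, and fewer cells of a type cannot be told apart from less RNA per cell.

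Among 13434 other fitted genes with a mean of at least 50 and a proper symbol, those nearest to Nts in log2 value, each gene centred on its own mean over the 5 libraries, were Otor, Higd1b, Bhlhe23 and Mgp. Their Euclidean distances from Nts ran up to 3.13. Otor, which encodes the secreted protein otoraplin, had 3810 and 5238 in control and 11.4, 3.76 and 13.6 in the others. Higd1b, known from pericytes, had 554 and 263 in control and 0 in each of the others, and Mgp, the matrix Gla protein of vessel walls, 233 and 126 in control and again 0 in each. Bhlhe23, which rod bipolar cells need to mature, had 4002 and 2660 in control and 1.14, 4.70 and 0 in the others. These 4 genes were chosen by nearness to Nts in these same values. Their level near 0 in all 3 libraries labelled Zfp292-OE thus follows from the choice. All 4 reached the mean of 50 only through their control values. In the libraries labelled Zfp292-OE the mean was 9.59 for Otor, 1.95 for Bhlhe23 and 0 for Higd1b and Mgp. Nts, with a mean of 1.08 there, likewise reached the mean of 10 needed to be fitted only through its control values.

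Penk was higher in every library labelled Zfp292-OE than in either control. The gene lies on chromosome 4 (4133536 to 4138815). The controls had 827 and 804, which is 1.03-fold apart, and the values were 2094, 3309 and 2268 in the 3 others. Control averaged 816 ± 16.4 (SD, n = 2) against 2557 ± 657 (SD, n = 3), a 3.13-fold difference, and the log2 difference was 1.62 (SE 0.26). Among the libraries labelled Zfp292-OE, library 2 was the highest, 1.58-fold above the lowest.

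The 4 genes nearest to Penk by the same measure were Pkib, Ccnd1, Zfp473 and Mcm5, at distances of 0.21, 0.24, 0.25 and 0.26. As they were chosen by these same values, a profile like that of Penk follows from the choice. Ccnd1, the G1 cyclin D1, had 19732 and 18547 in control and 54303, 81971 and 47311 in the others. Mcm5, a subunit of the replicative helicase, had 2357 and 2406 in control and 6993, 10463 and 8110 in the others. Pkib, an inhibitor of protein kinase A, had 1642 and 1488 in control and 4261, 5773 and 4730 in the others, and Zfp473 was far lower, at 61.6 to 69.8 in control and 159 to 260 in the others. Of 10 markers of progenitors, 5 rose and 1 fell. Their summed level was 218075 to 241489 in control and 319346 to 377210 in the others, with none at 0 in any library. The part of progenitor number in the Penk difference was not tested.

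**Figure D2:**
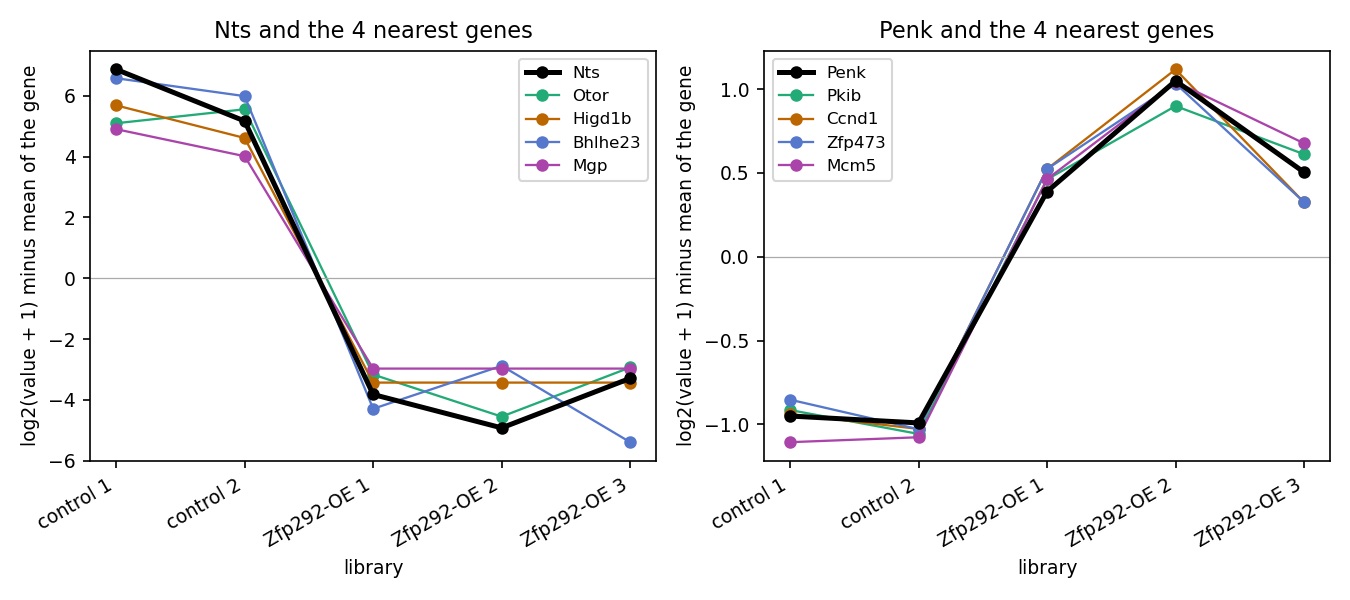
Log2(value + 1) minus the mean of the gene over the 5 libraries (vertical) in each library (horizontal), for Nts (left, black) and Penk (right, black) with the 4 genes nearest to each in colour. Every gene on the left is high in both controls and every gene on the right is low in both. The neighbours were chosen by these same values, so their likeness to Nts or Penk follows from the choice. Nts is highest in control library 1 and Otor in control library 2.

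Pdyn, the second opioid precursor, did not follow Penk. It had 140 and 128 in control and 28.5, 194 and 59.6 in the other 3, in library order. Library 2 was above both controls and the other 2 below them, so the groups overlapped. Control averaged 134 ± 8.24 (SD, n = 2) and the others 93.9 ± 87.7 (SD, n = 3).

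The secretin-family members Vip and Adcyap1 varied widely within each group. Vip, which relaxes smooth muscle and raises cyclic AMP in neurons, had 318 and 1449 in control and 273, 3.76 and 46.0 in the libraries labelled Zfp292-OE. The groups did not overlap, but library 1 labelled Zfp292-OE lay close to control library 1. Control averaged 884 ± 800 (SD, n = 2) and the others 107 ± 145 (SD, n = 3), and the log2 difference was −4.11 (SE 1.41), or −2.58 without library 2 labelled Zfp292-OE and −5.51 without library 1. Adcyap1 had 170 and 3.08 in control and 139, 18.8 and 91.0 in the others. All 3 values of the second group lay between the 2 controls. Its log2 difference of 1.26 (SE 1.53) had the opposite sign to its ratio of means of 0.959, and was −1.43 without control library 2.

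Npy was the most abundant member and had a small difference without overlap. The controls had 38544 and 39600, and the others, in library order, 34093, 21346 and 26242. Control averaged 39072 ± 747 (SD, n = 2) and the others 27227 ± 6430 (SD, n = 3), with a log2 difference of −0.55 (SE 0.19). Cartpt, whose peptides lower feeding when released in the hypothalamus, had 19765 and 4713 in control and 8748, 1711 and 2519 in the others. Control library 1 was the highest and library 1 labelled Zfp292-OE lay between the controls. Its log2 difference of −1.52 (SE 0.68) was −0.49 without control library 1 and −2.56 without control library 2.

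Tac1, the precursor of substance P and neurokinin A, had 4533 and 5406 in control and 2478, 5760 and 3550 in the libraries labelled Zfp292-OE. The groups overlapped, and the log2 difference was −0.42 (SE 0.30). Sst, which encodes the inhibitory peptide somatostatin, had 46.9 and 109 in control and 0, 24.4 and 382 in the others. The second group thus held both the lowest and the highest library, with 0 and 365 reads in libraries 1 and 3. Its log2 difference of −1.76 (SE 2.02) was 0.45 without library 1 labelled Zfp292-OE. Cck had at most 3 reads in any library, 2 in total over the controls and 3 over the others, and no fold is given.

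Per kilobase of exon, the order of mean levels in control was Npy, Cartpt, Nts, Tac1, Penk, Vip, Sst, Pdyn, Adcyap1 and Cck, from 69032 for Npy to 0.835 for Cck. Neighbours whose libraries overlapped in that order were Nts and Tac1, Vip and Sst, Pdyn and Adcyap1, and Adcyap1 and Cck. In the libraries labelled Zfp292-OE the order was Npy, Cartpt, Penk, Tac1, Sst, Pdyn, Vip, Adcyap1, Cck and Nts. There Penk stood at 1565 ± 402 per kilobase (SD, n = 3), overlapping Cartpt above it and Tac1 below it. Sst and Pdyn, Pdyn and Vip, and Vip and Adcyap1 overlapped there too. Nts went from the third place, at 1851 ± 1385 per kilobase (SD, n = 2), to the last, at 0.864 ± 0.840 (SD, n = 3). That place overlapped with Cck at 0.874, and each of Nts and Cck had 3 reads in total there. Before scaling by length, Npy made up 56.8% to 74.6% of the summed member value in each library.

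The members differed from one another in how well libraries of the same group matched, a measure that compares no groups. The gap between the 2 controls in log2(value + 1) had a median of 0.34 over all fitted genes. It was 0.04 for Penk and for Npy, 0.12 for Pdyn and 0.25 for Tac1, below that median. It was 1.20 for Sst, 1.70 for Nts, 2.07 for Cartpt, 2.18 for Vip and 5.39 for Adcyap1, so 5 of the 9 lay above it. Control library 1 was the higher for Nts, Cartpt and Adcyap1, and control library 2 for Sst and Vip, so the gaps did not go one way. Over the 3 libraries labelled Zfp292-OE the median range was 0.50, and all 9 fitted members exceeded it, from 0.66 for Penk to 8.58 for Sst. The medians were not matched for read level. The Nts range of 1.63 came from 1, 0 and 2 reads. Sst had 0 reads in library 1, Vip 4 in library 2, and Adcyap1 4 in control library 2. At so few reads these spreads depend on counting error and the pseudocount.

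**Figure D3:**
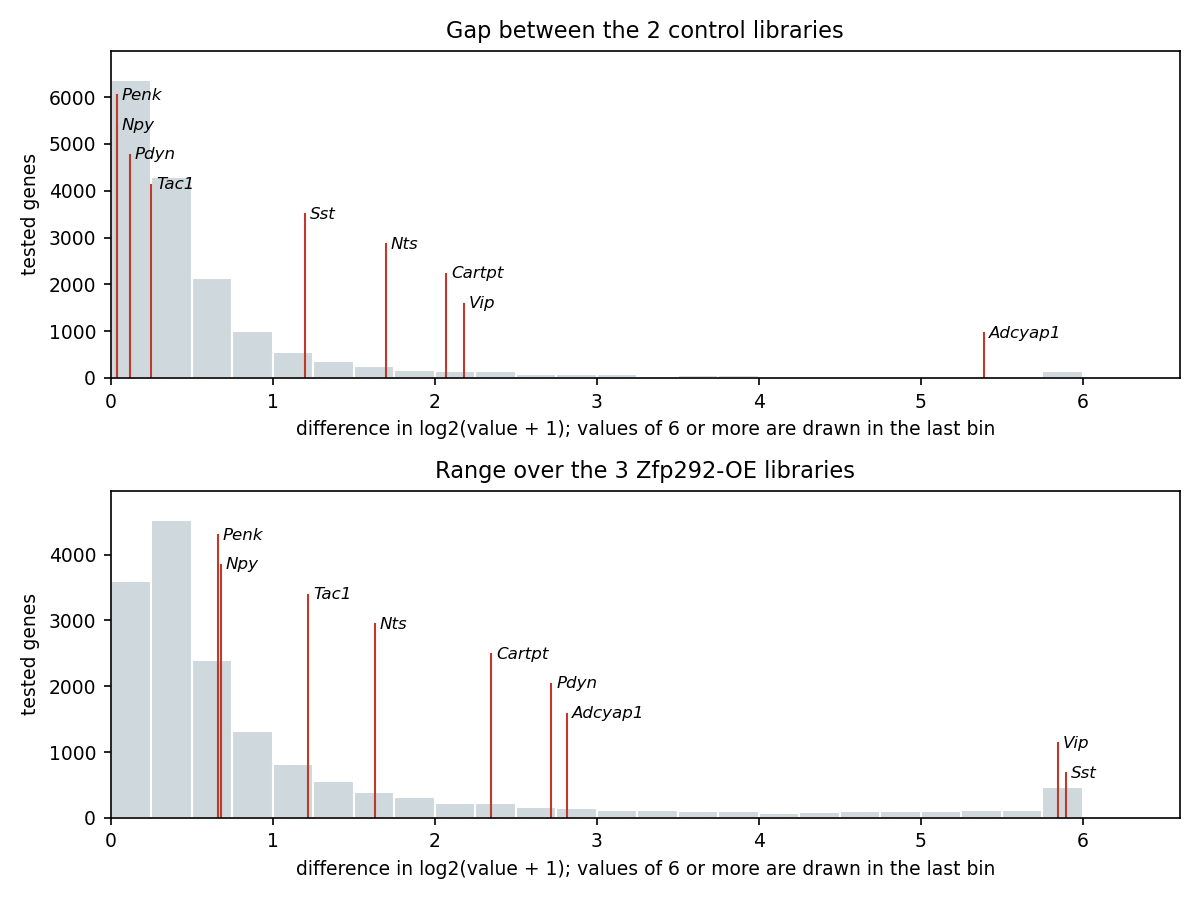
Number of fitted genes (vertical) by the gap between the 2 control libraries (top) and by the range over the 3 libraries labelled Zfp292-OE (bottom), both as differences in log2(value + 1), with red lines for the 9 fitted members. Penk and Npy lie at 0.04 in the top panel, while Vip and Sst lie at 5.85 and 8.58 in the bottom one, Sst being drawn in the last bin. The lowest libraries of Vip and Sst there had 4 and 0 reads.

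The summed level of amacrine cell markers overlapped between the groups. Of 12, 1 rose and 1 fell in limma (adjusted p below 0.05), a threshold that 17.4% of all genes fitted passed in either direction. The sum was 37613 to 43585 in control and 28039 to 44503 in the libraries labelled Zfp292-OE. Its largest parts were Tfap2b, Gad1, Calb2 and Gad2, which did not go one way, so an overlapping sum does not show an unchanged level. Calb2 had 7974 and 5267 in control and 9249, 10711 and 7863 in the others. The median log2 difference of the list was −0.31. The 2 members of that list at 0 in a library were Chat and Th, both at 0 in library 1 labelled Zfp292-OE, and Chat also in control library 2. Tfap2b, a factor of most amacrine cells, had 14216 and 13915 in control and 10406, 14187 and 8960 in the others. The gene that rose was Ptf1a, a factor that directs precursors to amacrine and horizontal cells, with 242 and 98.6 in control and 556, 1024 and 522 in the others. The gene that fell was Gad1, which makes the transmitter GABA, with 10658 and 7781 in control and 5100, 2995 and 2284 in the others. Slc32a1, Slc6a9 and Th were also lower without overlap, as were 25.7% of all genes fitted, but did not pass. Slc32a1 had 217 and 410 in control and 147, 60.2 and 52.3 in the others, and Slc6a9 698 and 290 against 107, 238 and 139. Gad2, the second enzyme of GABA synthesis, had 4853 and 5382 in control and 6057, 10784 and 5575 in the others. It lay higher without overlap where Gad1 was lower, but did not pass (log2 difference 0.48, SE 0.26). The 7 ganglion cell markers included none that passed in limma, and their sum was 4519 to 6571 in control and 5510 to 13399 in the others.

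Of 19 genes that cut, amidate, package and release peptides, the granins of dense-core vesicles among them, 6 fell, 1 rose and 12 did not pass, a share of 36.8% called against 17.4% of all 16316 genes (limma, Benjamini-Hochberg adjusted p below 0.05). Their median log2 difference was −0.54, and with equal totals 10 fell and 0 rose. The rod, bipolar, Müller glia and astrocyte markers given above beside Nts were lower in the same libraries, and their part in this count was not tested. Cadps, which primes dense-core vesicles for release, had 5028 and 5103 in control and 2338, 2109 and 1328 in the others. It fell by 1.44 on the log2 scale (SE 0.26, adjusted p = 0.0056 in limma, range over 14 alternatives 5.5e-06 to 0.16). Its relative Cadps2 went the other way, from 432 and 473 in control to 1182, 853 and 1013, and rose 2.23-fold (adjusted p = 0.032, range 0.0019 to 0.16). Equal totals (adjusted p = 0.068) ended the Cadps2 call.

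Pam, the enzyme that puts the amide on the end of peptides such as Vip, Npy and substance P, had 1653 and 2119 in control and 703, 1008 and 779 in the others. It fell by 1.19 on the log2 scale (adjusted p = 0.020 in limma, range 0.00061 to 0.20). Pcsk1n, which encodes an inhibitor of the convertase PC1, went from 2066 ± 48.6 (SD, n = 2) to 903 ± 246 (SD, n = 3), and fell by 1.23 (adjusted p = 0.018 in limma). Ptprn, a membrane protein of dense-core vesicles, fell from a control mean of 600 ± 196 (SD, n = 2) to 163 ± 25.6 (SD, n = 3; limma adjusted p = 0.025). The carboxypeptidase Cpe, which trims the basic residues shown in lower case around the Penk copies, had 64755 and 55648 in control and 36568, 38975 and 49200 in the others. It fell by 0.54 (adjusted p = 0.045 in limma, range 0.012 to 0.25), and the granin Chgb fell by 0.51 (adjusted p = 0.046, range 0.0082 to 0.17). The convertase Pcsk2 had a log2 difference of −1.10 with an adjusted p of 0.073 and did not pass. Its chaperone Scg5 was level, at 97834 ± 11374 (SD, n = 2) and 96608 ± 3052 (SD, n = 3).

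Many receptors of these peptides had few or no reads. Of 23, 13 were fitted, 1 rose, 1 fell and 11 did not pass. The share called was 15.4%, against 17.4% of all genes fitted, and the median log2 difference of the receptors was −0.25. Ntsr2, the low-affinity neurotensin receptor, had 777 and 579 in control and 1214, 1656 and 1677 in the libraries labelled Zfp292-OE. It thus rose 2.23-fold where Nts was near 0, with an adjusted p of 0.024 in limma (range over 14 alternatives 0.0011 to 0.20). The call ended with equal totals (0.052) and without library 2 (0.062) or library 3 (0.061) labelled Zfp292-OE. Sortilin, Sort1, which binds neurotensin inside cells, had 7358 ± 1832 (SD, n = 2) and 6079 ± 1216 (SD, n = 3) and did not pass (adjusted p = 0.42). Ntsr1, the high-affinity receptor, had 16.3 and 32.3 in control and 12.5, 0 and 40.8 in the others.

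The opioid receptors that enkephalins and dynorphins act on had almost no reads. Oprk1 was at 0 in all 5 libraries, Oprd1 had 3.08 in control library 2 and 0 elsewhere, and Oprm1 had 0 to 13.1. Cckbr, the brain receptor of cholecystokinin and gastrin, had 546 and 526 in control and 100, 129 and 116 in the others. It fell by 2.22 on the log2 scale (SE 0.48, adjusted p = 0.013 in limma, range over 14 alternatives 2.5e-05 to 0.14), with its own ligand Cck at 3 reads or fewer in each library.

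Of 46 other peptide precursors, 31 were fitted, 1 rose, 1 fell and 29 did not pass. The share called was 6.45%, against 17.4% of all genes fitted, and the median log2 difference of these precursors was −0.07. Gal, the precursor of galanin, had 59.9 and 382 in control and 1185, 785 and 935 in the libraries labelled Zfp292-OE, where all 3 were above both controls. Its rise was 6.26-fold (adjusted p = 0.024 in limma, range 0.0047 to 0.11), was 1.32 on the log2 scale without control library 1 and 3.97 without control library 2, and was not called in edgeR (0.063) or without library 1 (0.078) or 3 (0.050) labelled Zfp292-OE. Adm, the precursor of the vasodilator adrenomedullin, had 1702 and 2337 in control and 580, 406 and 1136 in the others. It fell by 1.63 on the log2 scale (adjusted p = 0.026 in limma, range 0.00090 to 0.29), and was not called without library 1 labelled Zfp292-OE (0.072).

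Of 13 peptidases that end peptide signals, 11 were fitted and none passed in limma, where 17.4% of all genes fitted did. Of the 11, 1 had an unadjusted p below 0.05 in limma, and 0 were called in edgeR and in DESeq2. Ace, the angiotensin-converting enzyme, had 75.2 and 209 in control and 4.56, 0.940 and 32.4 in the others (log2 difference −4.15, adjusted p = 0.074), and passed without library 3 labelled Zfp292-OE (0.041) and with a pseudocount of 10 (0.043). Lnpep, a membrane aminopeptidase, had a log2 difference of −0.41 (adjusted p = 0.17). Nln, the peptidase neurolysin that cuts neurotensin, was level at 1454 ± 187 (SD, n = 2) and 1579 ± 170 (SD, n = 3).

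**Figure D4:**
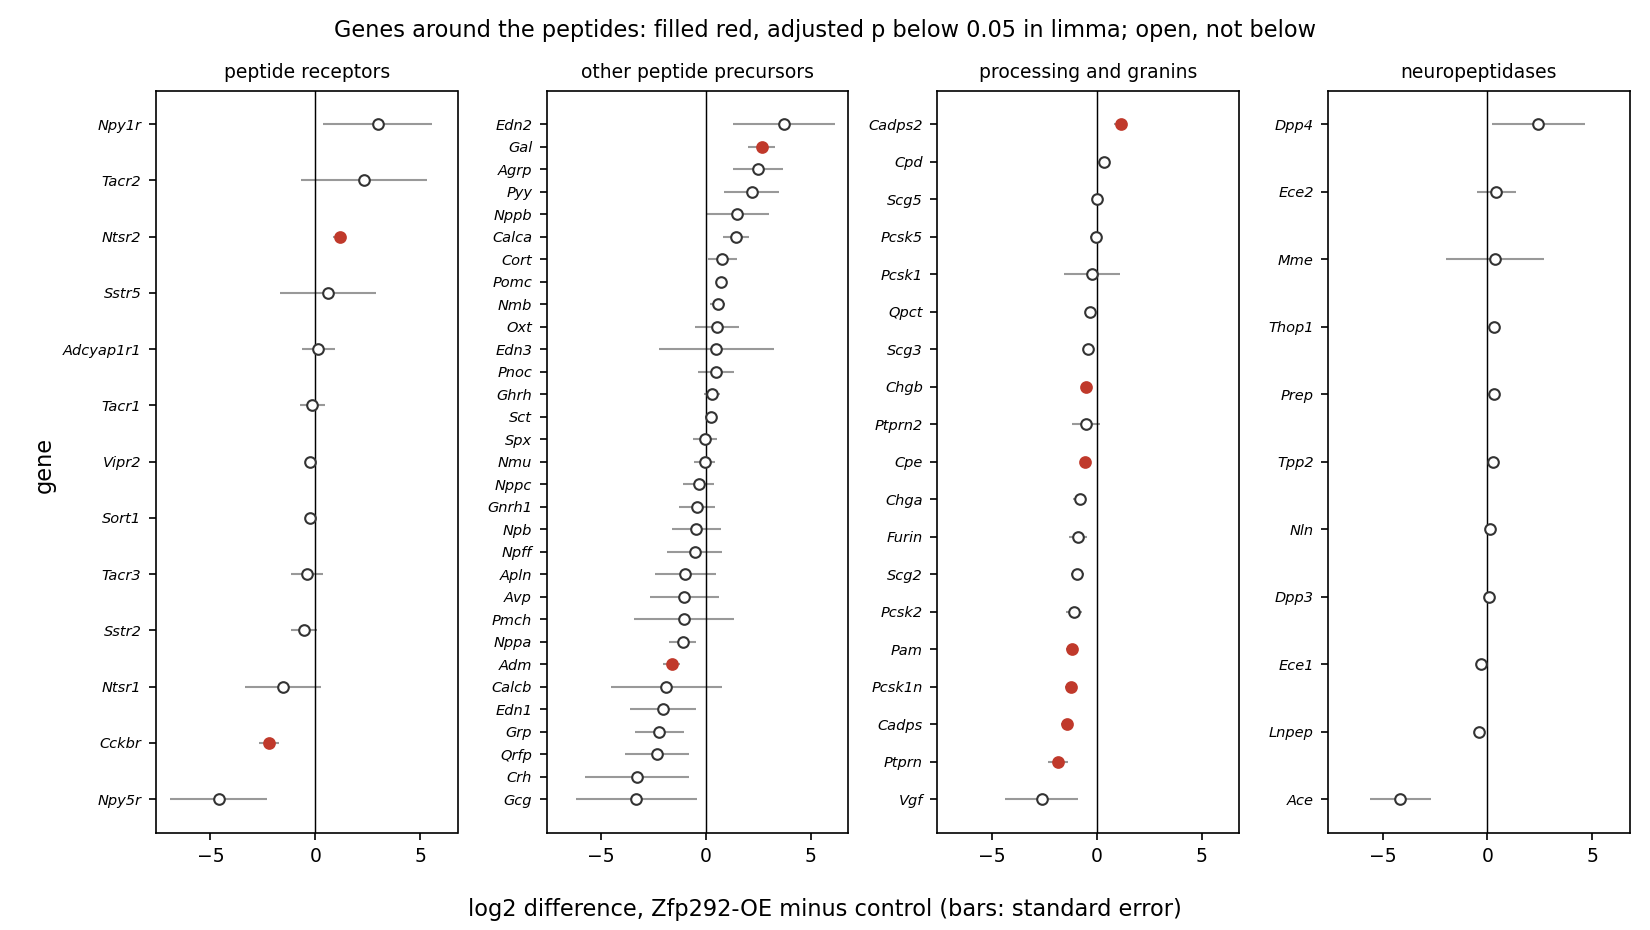
Log2 difference, libraries labelled Zfp292-OE minus control (horizontal, bars are standard errors), of each fitted gene (vertical) in 4 lists, with filled red points for an adjusted p below 0.05 in limma and open points for the rest. In the list of processing enzymes and granins 6 filled points lie below 0 and 1 above, and the peptidases have none.

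In limma 2836 genes of the whole table were called with all libraries and 1 without control library 1 or without control library 2, and none of the calls in the 4 lists held there. In those fits the lone control is assumed to vary like the other group. The log2 differences moved little for some genes, with −1.45 and −1.43 for Cadps and −2.19 and −2.24 for Cckbr. Without library 1 labelled Zfp292-OE, Cadps was the 1 gene called among processing enzymes and granins, and 1657 of all genes were called. Cpe and Chgb were not called without library 2 (adjusted p = 0.13 and 0.14 in limma), nor Cadps2 without library 3 (0.063). With no filter the calls of Cpe (0.075), Ptprn (0.052) and Chgb (0.053) ended, and edgeR did not call Chgb (0.051).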

How the data were processed

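Messenger RNA was sequenced from sorted GFP-positive retinal cells in 2 control libraries and 3 libraries labelled Zfp292-OE, with 1.3 µg of total RNA per library, per the labels' protocols. The table deposited by the authors holds a normalised signal for each gene: in each library 100% of values were whole multiples of the smallest value above 0, within 1e-06 of a read, which means reads divided by 1 factor per library. A read was worth 0.770 to 1.14. The builds GRCm38 and mm10 are named in the submitters' processing notes, while the aligner, counter, scaling and use of strand were not given in the sources used here. The table holds 0 columns of other samples.

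Genes with a mean of at least 10 were fitted on log2(value + 1) by limma 3.58.1 with a trend, in R 4.3.3, and p-values were adjusted over all 16316 by Benjamini-Hochberg with a threshold of 0.05. Log2 differences, and folds of list genes, are differences of mean log2(value + 1) and can lie above or below the ratio of means, while the folds of Penk and Nts are a ratio of means and of pooled reads. Whole reads were recovered for edgeR 4.0.16 (quasi-likelihood) and DESeq2 1.42.0, run as alternatives beside pseudocounts of 0.5 and 10, other filters (none, or a mean of 50), TMM scaling, equal totals, the replicate number as a block, and the removal of each library in turn. The fit was tested on simulated data. The members, gene lists, markers and the rule for named genes were chosen with earlier results of these data known. That rule takes the members, up to 8 called genes of each list with the smallest p (or the 2 with the smallest p), the receptors of Nts and Penk, and the 4 genes nearest to each. The rule does not cover Pcsk2, Scg5 and Nln, which were named after their values were seen. The same holds for the cell type markers named singly, such as Grm6, Rgs5, Tfap2b, Gad1, Gad2 and Ptf1a. Among those markers, Bhlhe23 and Ccnd1 are the exceptions, as the rule takes them as near genes. Coordinates and upstream windows come from RefSeq on GRCm38.p6, and exon lengths and the Penk transcript from GENCODE M21.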

Additional observations from a re-analysis of the deposited data

How the results depend on the processing

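Over 14 alternatives the log2 difference of Penk stayed between 1.40 and 1.75 and that of Nts between −11.11 (DESeq2) and −7.48 (pseudocount of 10), with −10.88 to −9.18 when 1 library was left out for Nts and 1.42 to 1.75 for Penk. Tac1, Vip, Npy, Cartpt and Pdyn kept their sign in all 14. Sst changed sign in edgeR (0.78), DESeq2 (0.80) and without library 1 labelled Zfp292-OE (0.45, range without 1 library −3.84 to 0.45). Adcyap1 changed sign in edgeR (−0.09), DESeq2 (−0.06) and without control library 2 (−1.43, range −1.43 to 3.96). Zfp292, never called, changed sign with equal totals (−0.17), with a replicate block (−0.01) and among the fits without 1 library (−0.03 and −0.01 at the lowest, 0.12 at the highest). The cause of these changes was not tested.

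Without 1 library the count of called genes ran from 1 to 2352, that of receptors from 0 to 2, of other precursors from 0 to 2, of processing enzymes and granins from 0 to 6, and of peptidases from 0 to 1. Receptors called numbered 2 with all libraries, 1 with equal totals and 4 in DESeq2. Other precursors numbered 2, against 1 in edgeR and 5 in DESeq2. Processing enzymes and granins numbered 7, against 4 with no filter and 11 in DESeq2. The median of the other precursors, −0.07, was 0.11 with a replicate block and ran from −0.27 to 0.34 without 1 library. Peptidases numbered 0, against 1 with a pseudocount of 10. Equal totals called 912 genes higher and 1985 lower, against 1632 and 1204, and moved the median log2 difference of all genes from −0.06 to −0.27. DESeq2 called 4167 genes.

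The replicate numbers of the titles gave correlations of deviations from the group means of −0.0386 and −0.0272 for same-numbered libraries. With 2 controls, whose deviations mirror each other, these values cannot decide whether same-numbered libraries share more than a number. With a replicate block, in which library 3 labelled Zfp292-OE has no partner and adds nothing, 2498 genes were called, with 1 receptor, 2 other precursors, 5 processing genes and 1 peptidase. The block ended the calls of Ntsr2 (0.051), Cadps2 (0.059) and Chgb (0.076), and Ace was called (0.025). Over the alternatives, the 15 named list genes fitted gave 209 values with the sign of the reported value, of which 46 lost and 3 gained the call. Depth limits Nts, Cck, Oprd1 and Oprm1, which had few reads in some or all libraries.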
